A study of Homo sapiens with 6 samples.

Results

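The genes described here are 39 mitosis and G2/M genes, chosen by name for their known part in entering, ordering or leaving mitosis. Earlier results of these data were known when they were chosen. Each gene was read from the probe set annotated with that gene alone, taking the one of highest mean where there were several, and 35 of the 39 had such a probe set, of 14232 genes in all. BUB1B, KIF20A, KIF23 and KIF4A were not measured, because the only probe set of each was annotated with a second gene as well. All 35 probe sets had a mean signal above the lower quartile of all probe sets (4.70 on the log2 scale), as had 11309 of all 14232 genes.

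The cells were MO3.13, labelled as a human oligodendroglioma line and known elsewhere as a fusion of rhabdomyosarcoma cells with cultured human oligodendrocytes. Treated cells (3 arrays) had been kept with recombinant mouse Klotho at 0.4 µg/mL in serum-free DMEM for 3.5 h. Control cells (3 arrays) were described only as grown in DMEM with 10% fetal bovine serum, a medium in which both groups had been grown. Klotho and the absence of serum therefore cannot be told apart in this comparison. Whether the 3 arrays of each group stand for separate cultures is not stated. Klotho itself is a membrane and circulating protein known as the co-receptor of the hormone FGF23.

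Arrays were alike in overall signal, with medians of 6.36 to 6.47 and correlations between arrays of 0.985 to 0.991 over 22011 probe sets. Of the oligodendrocyte markers, 8 of 10 were measured and 7 of the 8 lay above the lower quartile, with CNP the brightest at 8.81 ± 0.13 in treated and 8.83 ± 0.10 in control cells (log2 signal, SD, n = 3 each) and MOG the dimmest at 4.59 ± 0.21 in treated and 4.58 ± 0.17 in control cells, below that quartile. MBP, myelin basic protein, read 5.27 ± 0.18 in treated and 5.26 ± 0.15 in control cells. Of the muscle markers, 6 of 7 were measured and 5 lay above the lower quartile, with the acetylcholine receptor gene CHRNA1 the brightest at 11.68 ± 0.04 in treated and 11.67 ± 0.11 in control cells. The determination factor MYOD1 read 9.63 ± 0.06 in treated and 9.72 ± 0.11 in control cells, and its relative MYF5, the 1 below the quartile, 3.66 ± 0.03 in treated and 3.60 ± 0.29 in control cells. Of the astrocyte markers 3 of 5 also lay above the quartile, and of the microglia and blood markers 2 of 5. No detection calls were used here, so a dim signal cannot be read as absence, nor one above the quartile as expression.

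Mitosis is driven by cyclin-dependent kinase 1 bound to cyclin B, which the CDC25 phosphatases switch on. Many genes of this programme are transcribed late in the cell cycle, when the transcription factors B-MYB and FOXM1 replace repressor complexes on their promoters. The short promoter elements known for this control are the CCAAT box, bound by NF-Y, and the cell cycle genes homology region (CHR), to which complexes containing LIN54 bind. Serum withdrawal is a classical way to make normal cells leave the cycle.

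Promoter stretches of 9 of the genes, picked without a set rule, are shown as examples of these elements. Many such genes are known to share them beyond their function. They run from 130 bases before to 20 bases after the first start listed by RefSeq (build GRCh38.p14), 5′ to 3′ on the strand of the gene. Capitals mark each CCAAT, or ATTGG on the other strand, and each CHR core, searched as TTTGAA or TTTAAA on both strands. Matches that overlap, as in the palindrome of PTTG1 and the joined elements of MKI67, were counted separately.
PTTG1 (chr5:160421725-160421874, plus strand): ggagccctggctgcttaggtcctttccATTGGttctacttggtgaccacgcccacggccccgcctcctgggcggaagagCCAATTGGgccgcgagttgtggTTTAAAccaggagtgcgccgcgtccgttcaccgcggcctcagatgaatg
ESPL1 (chr12:53268169-53268318, plus strand): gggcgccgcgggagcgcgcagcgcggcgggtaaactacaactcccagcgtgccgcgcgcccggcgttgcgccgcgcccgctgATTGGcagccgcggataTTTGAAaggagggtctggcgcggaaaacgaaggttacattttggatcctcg
MKI67 (chr10:128126404-128126553, minus strand): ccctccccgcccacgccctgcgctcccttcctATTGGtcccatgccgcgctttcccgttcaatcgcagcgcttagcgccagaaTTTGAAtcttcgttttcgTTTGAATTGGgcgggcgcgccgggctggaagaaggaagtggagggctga
CCNB1 (chr5:69167020-69167169, plus strand): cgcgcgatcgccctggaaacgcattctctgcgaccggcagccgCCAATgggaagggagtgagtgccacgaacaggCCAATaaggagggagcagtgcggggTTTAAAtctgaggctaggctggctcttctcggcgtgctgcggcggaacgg
CCNB2 (chr15:59105016-59105165, plus strand): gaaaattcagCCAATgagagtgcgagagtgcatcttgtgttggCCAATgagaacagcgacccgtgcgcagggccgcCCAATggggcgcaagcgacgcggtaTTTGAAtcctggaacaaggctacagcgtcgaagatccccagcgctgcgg
PLK1 (chr16:23678759-23678908, plus strand): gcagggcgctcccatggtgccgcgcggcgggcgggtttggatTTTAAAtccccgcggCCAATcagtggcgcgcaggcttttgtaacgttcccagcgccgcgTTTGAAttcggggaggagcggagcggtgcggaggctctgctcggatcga
HMMR (chr5:163460502-163460651, plus strand): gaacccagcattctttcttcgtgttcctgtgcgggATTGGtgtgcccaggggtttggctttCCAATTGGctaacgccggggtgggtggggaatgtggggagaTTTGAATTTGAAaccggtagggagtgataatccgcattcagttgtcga
PRC1 (chr15:90994516-90994665, minus strand): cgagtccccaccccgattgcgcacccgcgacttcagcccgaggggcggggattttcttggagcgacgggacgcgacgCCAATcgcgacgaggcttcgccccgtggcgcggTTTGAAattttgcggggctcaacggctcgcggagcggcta
ANLN (chr7:36389732-36389881, plus strand): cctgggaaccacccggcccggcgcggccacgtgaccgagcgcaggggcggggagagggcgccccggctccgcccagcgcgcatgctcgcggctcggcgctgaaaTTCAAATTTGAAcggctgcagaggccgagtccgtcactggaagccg

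The CHR core began 29 bases before the start in CCNB2 and PLK1, 30 before it in CCNB1 and 31 before it in ESPL1. CCNB2 carried 3 CCAAT boxes at 120, 87 and 54 bases before the start, and CCNB1 carried 2 at 87 and 55. ANLN held CHR cores at 26 and 20 bases and no CCAAT box in this stretch.

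RefSeq promoter windows of 300 bases (250 before and 50 after a start) were at hand for 32 of the 39 genes, in 42 windows because some genes have several starts. A CCAAT box stood in 31 of the 42 (73.8%), against 34.6% of all 35116 windows. A CHR core stood in 32 (76.2%), against 24.0% of all windows, and 24 windows held both (57.1%, against 9.27%). Within the 60 bases before the start, 20 windows held a CHR core (47.6%), against 5.49% of all windows. Each stretch printed above held one there, so the printed genes are not typical of the list. NEK2, BUB1, CCNA2 and AURKB had no CHR core in any window. The median GC content was 61.3% in these windows and 58.7% in all. Such genes were partly defined in the field by this control, so the shares describe the genes listed and say nothing of the arrays, and a match is not a bound site.

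**Figure D1:**
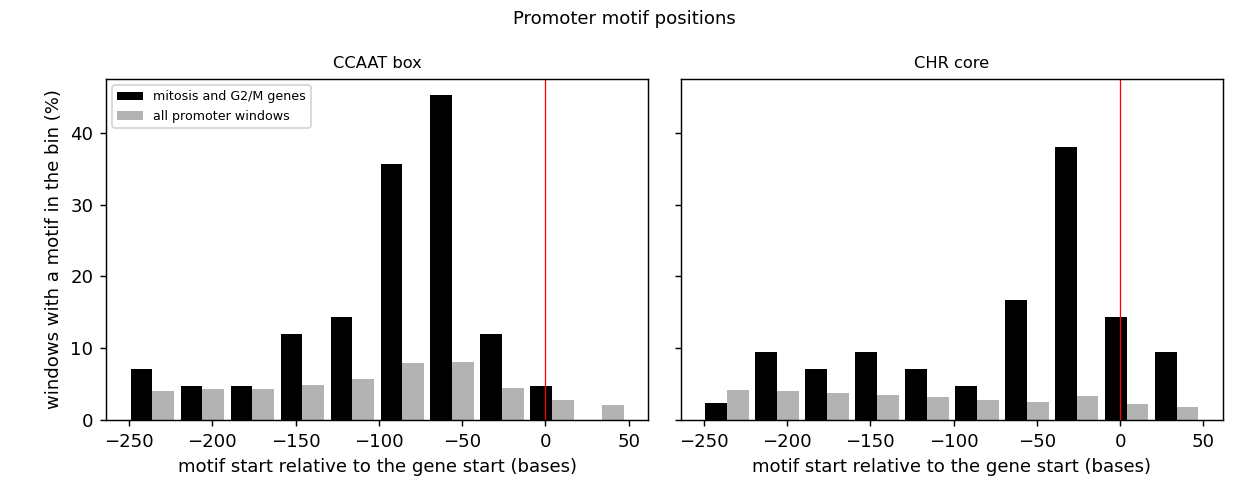
Share of promoter windows (y axis, %) with a CCAAT box (left panel) or a CHR core (right panel) starting in each 30-base bin before or after the gene start (x axis, bases; red line, the start). Black bars are the 42 windows of the mitosis and G2/M genes and grey bars all 35116 windows; the black bars are highest at 70 to 40 bases before the start for the CCAAT box (45.2%) and 40 to 10 bases before it for the CHR core (38.1%).

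After 3.5 h, transcripts of the mitotic programme stood close to their control level. Of the 35 measured genes, 0 passed an adjusted p of 0.05 in limma, with differences (treated minus control, log2) between -0.30 for PTTG1 and 0.08 for NEK2. No probe set of the whole array passed either (0.00% of 22011, with 703, or 3.19%, at an unadjusted p under 0.05), and the adjusted p was 0.998 for each of the 35 genes. At an unadjusted p under 0.05 there was 1 of the 35, PTTG1, lower in treated cells. Of all genes 1.11% were past this level and lower and 0.963% past it and higher, 2.07% in all. Lower values in treated cells were seen for 23 genes and higher ones for 12, with a median difference of -0.04. Over all 14232 genes 62.6% were lower, with a median of -0.03, so the split of the mitosis genes was close to that of the array as a whole. With each array centred on its median, 17 of the 35 were lower (median 0.01), against 42.7% of all genes. In RNA from whole cultures, fewer cells in mitosis and less of a transcript per cell cannot be told apart.

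Bounds on these differences were narrow. For 34 of the 35 genes the 95% interval reached neither a 1.5-fold rise nor a 1.5-fold fall, the exception being MKI67, and the same held for 91.7% of all genes. None of the 35 intervals reached a 2-fold change, as for 14047 of all 14232 genes. These intervals hold for each gene taken alone. Differences smaller than 0.1 in size were found for 27 of the 35, and the share of all genes was not counted.

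**Figure D2:**
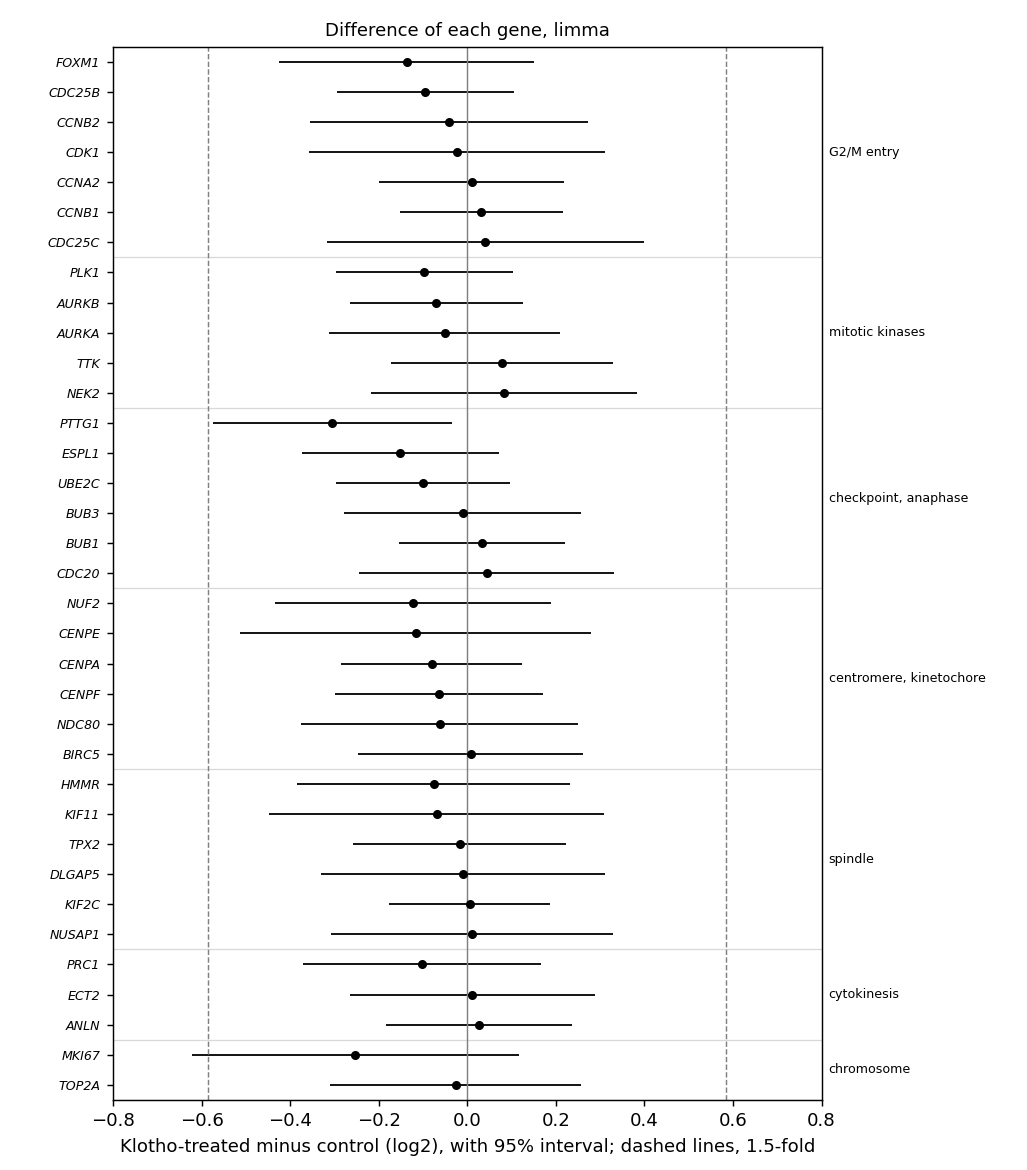
Difference between Klotho-treated and control cells for each measured gene (x axis, log2; points, limma estimates; bars, 95% intervals; n = 3 arrays each), with genes grouped by role down the page. Solid and dashed lines mark no difference and a 1.5-fold change; only the PTTG1 interval leaves out 0, and only the MKI67 interval crosses a dashed line.

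The engine of mitotic entry comprised 7 measured genes, of which 4 were lower and 3 higher in treated cells, with a median difference of -0.02 (2 of 7 lower with centred arrays). CDK1, the kinase itself, read 9.70, 9.98 and 10.12 on the treated arrays and 10.05, 9.79 and 10.04 on the control arrays (log2 signal). Its treated values spanned those of the controls, and the difference was -0.02 (95% interval -0.36 to 0.31). CCNB1, cyclin B1, was the steadiest of its partners, at 11.20, 11.11 and 11.21 in treated and 11.19, 11.09 and 11.14 in control cells. Every array read within 0.12 of every other, and the interval of the difference (-0.15 to 0.22) was among the narrowest of the list. Cyclin B2 (CCNB2) differed by -0.04 and cyclin A2 (CCNA2), which acts in S phase and G2, by 0.01.

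CDC25B and CDC25C are phosphatases that remove the inhibitory phosphates from CDK1. CDC25B read 8.14, 8.17 and 8.23 in treated cells and 8.38, 8.23 and 8.21 in control cells, so that treated array 3 lay among the controls, and the difference was -0.09 (95% interval -0.29 to 0.10). CDC25C differed by 0.04. FOXM1, a transcription factor that activates many G2/M genes, read 8.50, 8.84 and 8.86 in treated and 8.92, 8.89 and 8.79 in control cells. The low value was that of treated array 1 alone: the difference was -0.14 (95% interval -0.42 to 0.15; limma, adjusted p = 0.998) with it and -0.02 without it.

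Among the 5 mitotic kinases, 3 were lower and 2 higher, with a median of -0.05 (3 lower with centred arrays, median -0.002). PLK1, polo-like kinase 1, which acts on centrosomes, chromosomes and CDK1 activation, read 9.98, 10.11 and 10.09 in treated cells, against 10.19, 10.21 and 10.07 in control cells. The groups overlapped through control array 3, and the difference was -0.10 (95% interval -0.30 to 0.10). AURKB, the kinase of the chromosomal passenger complex, read 10.21, 10.25 and 10.12 in treated and 10.23, 10.21 and 10.34 in control cells, a difference of -0.07. It was lowest on treated array 3, where most of the list was high. AURKA, the centrosomal Aurora kinase, differed by -0.05, the checkpoint kinase TTK by 0.08, and NEK2, which helps centrosomes part, by 0.08.

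The spindle checkpoint and the machinery of anaphase held the gene with the smallest p of the list. PTTG1 encodes securin, the inhibitor that keeps separase inactive until anaphase. It read 11.02, 11.05 and 11.25 in treated cells and 11.54, 11.45 and 11.24 in control cells. Treated array 3 and control array 3 met at the same level while the other 4 arrays stood apart, and the difference was -0.30 (95% interval -0.57 to -0.04; limma, unadjusted p = 0.0321, adjusted p = 0.998). Leaving out 1 array at a time gave differences of -0.39 to -0.24. The unadjusted p was 0.0167 without control array 3 and 0.0201 without treated array 3, and it was 0.0936 without control array 1, 0.0813 without control array 2, 0.0955 without treated array 1 and 0.0944 without treated array 2. PTTG1 has closely related copies in the genome, and signal from these cannot be separated here.

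ESPL1 encodes separase, the protease that securin holds back and that cuts cohesin at anaphase. Its values were 7.33, 7.51 and 7.53 in treated cells, against 7.70, 7.58 and 7.54 in control cells. This was the 1 gene of the 35 whose groups did not overlap, by a margin of less than 0.01, with all treated arrays lower. Of all genes, 5.30% showed such a gap downwards and 2.59% upwards, so 1 of 35 lower and 0 of 35 higher is no more than the array as a whole gives. The ESPL1 difference was -0.15 (95% interval -0.37 to 0.07).

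The remaining genes of this step differed by 0.10 or less. UBE2C, the ubiquitin-conjugating enzyme of the anaphase-promoting complex, differed by -0.10 and its activator CDC20 by 0.04. For the checkpoint proteins BUB1 and BUB3 the differences were 0.03 and -0.01. Of the 6 measured genes, 4 were lower and 2 higher, and 3 were lower with centred arrays.

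At the centromere and kinetochore, 5 of 6 genes were lower, with a median of -0.07 (5 lower with centred arrays, median -0.02). CENPA, the histone H3 variant that marks centromeres, read 8.50, 8.38 and 8.32 in treated cells, against 8.48, 8.41 and 8.54 in control cells, with a difference of -0.08 (95% interval -0.29 to 0.12). NUF2, a subunit of the NDC80 complex that holds microtubules, read 8.56, 8.56 and 8.87 in treated and 8.60, 8.88 and 8.88 in control cells. Here 3 arrays were low, control array 1 among them, and the difference was -0.12 (95% interval -0.43 to 0.19). Its partner NDC80 differed by -0.06, and the large kinetochore protein CENPF by -0.06.

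CENPE, the kinesin that carries chromosomes to the spindle equator, was the gene on which a single array mattered most. It read 7.08, 7.26 and 7.72 in treated cells, whereas the control arrays lay at 7.44, 7.51 and 7.45. Treated arrays fell on both sides of the tightly grouped controls, with a difference of -0.12 (95% interval -0.51 to 0.28; limma, unadjusted p = 0.505). It was -0.30 without treated array 3 (unadjusted p = 0.0251) and 0.02 without treated array 1 (unadjusted p = 0.900). BIRC5, survivin, a further subunit of the passenger complex, differed by 0.01.

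**Figure D3:**
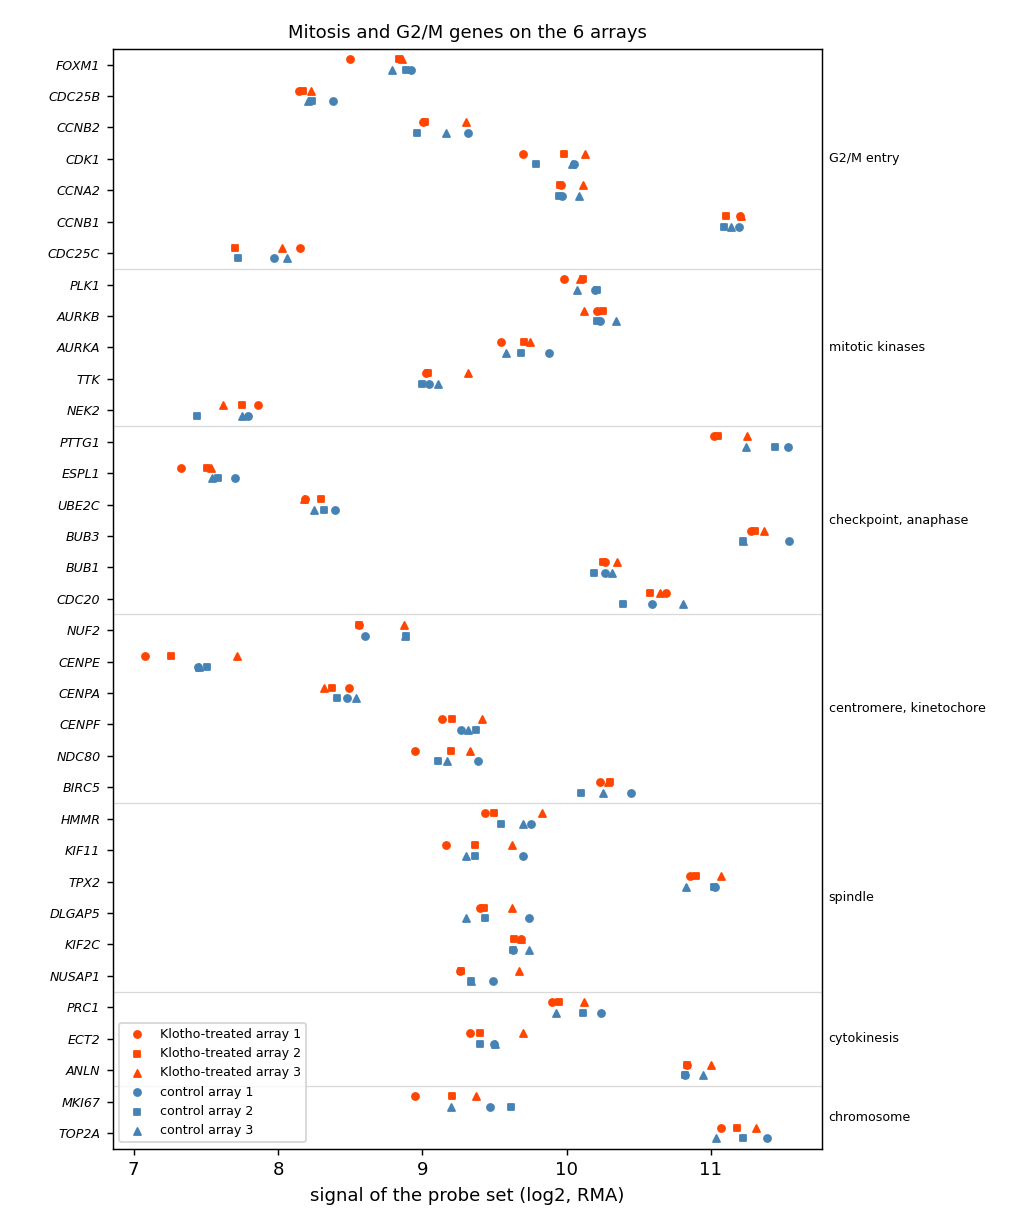
Log2 signal (x axis) of each of the 35 measured genes (rows, grouped by role) on each array, with Klotho-treated arrays in orange above the control arrays in blue and the array number given by the marker. Signals of different genes are not comparable because they come from different probes; within a row the orange and blue points overlap for all genes but ESPL1, and the orange triangle (treated array 3) is often the rightmost of its group.

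Spindle motors and microtubule proteins (6 measured) were 4 lower and 2 higher, with a median of -0.01 (2 lower with centred arrays). HMMR, a spindle assembly factor, read 9.43, 9.50 and 9.83 in treated cells and 9.75, 9.54 and 9.70 in control cells, a difference of -0.08 (95% interval -0.39 to 0.23). KIF11, the motor that pushes spindle poles apart, read 9.17, 9.36 and 9.62 in treated cells and 9.70, 9.36 and 9.30 in control cells. Both groups spread over more than 0.39, beyond the difference between them of -0.07. TPX2, which activates AURKA on the spindle, differed by -0.02. The differences were 0.01 for KIF2C, a microtubule-depolymerizing kinesin, 0.01 for NUSAP1 and -0.01 for DLGAP5, both microtubule-binding proteins.

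Cytokinesis was represented by 3 measured genes. PRC1, which bundles the microtubules of the central spindle, read 9.90, 9.94 and 10.12 in treated and 10.23, 10.11 and 9.93 in control cells, a difference of -0.10 (95% interval -0.37 to 0.17). ANLN, the scaffold of the contractile ring, read 10.83, 10.83 and 11.00 in treated cells, against 10.82, 10.82 and 10.94 in control cells. In each group arrays 1 and 2 stood together and array 3 above them, and the ANLN difference was 0.03. ECT2, the exchange factor that activates RhoA at the cleavage site, differed by 0.01.

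On the chromosomes themselves, TOP2A, the topoisomerase that disentangles sister DNA, read 11.07, 11.18 and 11.31 in treated cells, against 11.39, 11.22 and 11.04 in control cells, with a difference of -0.03 (95% interval -0.31 to 0.26). MKI67 encodes Ki-67, the surface coat of mitotic chromosomes and the usual stain for cycling cells. It read 8.95, 9.21 and 9.37 in treated and 9.47, 9.62 and 9.20 in control cells. The treated arrays were lower except that control array 3 fell between treated arrays 1 and 2. Its difference of -0.25 (95% interval -0.62 to 0.12; limma, adjusted p = 0.998) was the second largest in size of the list, moving to -0.14 without treated array 1 and -0.37 without control array 3.

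Spread between arrays of 1 group exceeded the difference between groups for nearly all of these genes. The range over the 3 treated arrays was larger than the size of the group difference for 33 of 35 genes, the exceptions being PTTG1 and CDC25B. Counting the range of either group, it was larger for 34 of 35, all but PTTG1. For these ranges the share of all genes was not counted. The SD within groups was larger than the difference for 27 of the 35 and for 10614 of all 14232 genes. Such spread was therefore not particular to the list. The median SD was 0.12 among treated and 0.11 among control arrays, close to the 0.11 and 0.12 of all genes.

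This spread was shared between genes. Treated array 3 read above the mean of the other 2 treated arrays for 31 of the 35 genes (88.6%), against 54.9% of all genes, by a median of 0.18. It gave the highest of the 6 values for 12 genes (34.3%, against 12.4% of all genes). Treated array 1 gave the lowest value for 17 genes (48.6%, against 28.5% of all genes). Control array 1 gave the highest value for 14 (40.0%), where the share over all genes was 33.8%. With each array centred on its median, treated array 3 was highest for 13 genes (37.1%, against 14.3%), treated array 1 lowest for 12 (34.3%, against 19.2%) and control array 1 highest for 9 (25.7%, against 21.4%). No test was made of these shares, whose genes share the same arrays.

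Between treated arrays 3 and 1 the gap was 0.64 for CENPE, 0.45 for KIF11, 0.43 for CDK1, 0.42 for MKI67 and 0.41 for NUSAP1. Of the 35 genes 28 were higher on treated array 3 than on treated array 1, with a median gap of 0.22. The gap ran the other way for NEK2 (-0.24), CENPA (-0.18), CDC25C (-0.12), AURKB (-0.09), CDC20 (-0.04), UBE2C and KIF2C (both smaller than 0.01 in size). These gaps are between single arrays and were not tested, and the share of all genes with such a gap was not counted. Median deviations from a gene's mean over the 6 arrays were -0.13 on treated array 1 and 0.08 on treated array 3 for the list. For all genes they were -0.04 and 0.002. With centred arrays they were -0.08 and 0.07 for the list, against 0.01 and -0.005 for all genes.

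The count of lower genes followed these arrays. It was 29 of 35 without treated array 3 (median -0.09), against 62.1% of all genes, and 14 of 35 without treated array 1 (median 0.01), against 58.0%. Without control array 1 it was 16 (median 0.02), against 53.0% of all genes, and without control array 2 it was 31 (median -0.07), against 68.4%. The count was 27 of 35 (median -0.06) when treated array 3 and control array 1 were both left out, against 56.4% of all genes. Whether most of the list read lower or higher thus depended on which array was left out.

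**Figure D4:**
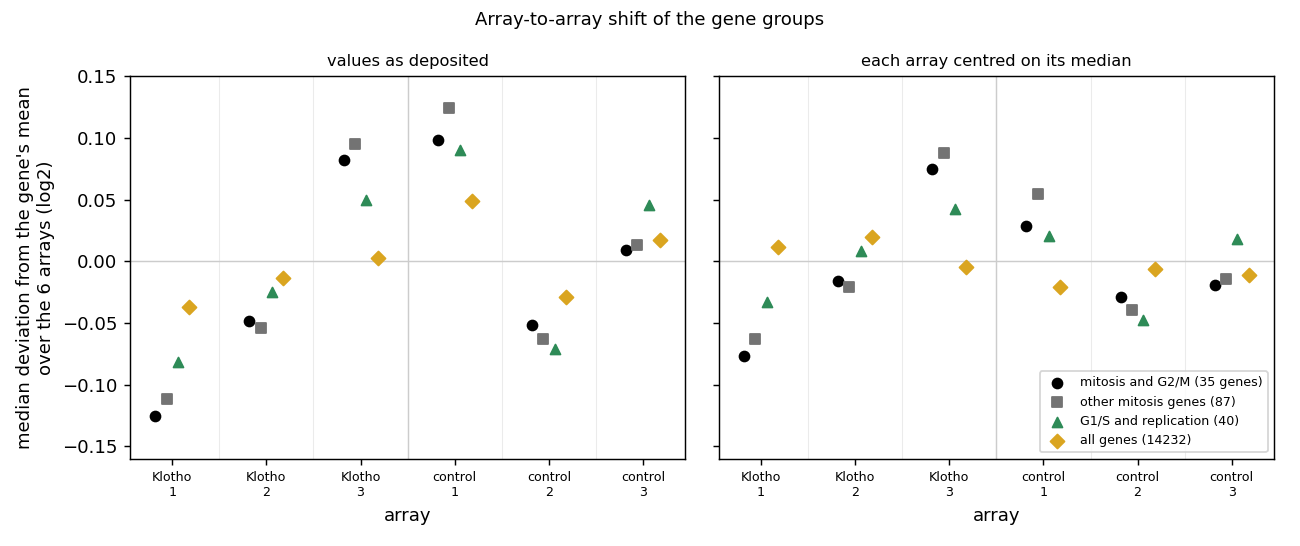
Median deviation from each gene's own mean over the 6 arrays (y axis, log2) on each array (x axis), for the 35 mitosis and G2/M genes (circles), 87 other mitosis genes (squares), 40 G1/S and replication genes (triangles) and all 14232 genes (diamonds), as deposited (left) and after centring each array on its median (right). The mitosis genes were lowest on treated array 1 (-0.13) and highest on control array 1 (0.10) and treated array 3 (0.08) as deposited, and after centring they were lowest on treated array 1 (-0.08) and highest on treated array 3 (0.07).

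Other genes of mitosis, in 5 lists with 87 measured of 118, gave 67 lower and 20 higher values, with a median difference of -0.05, and 0 passed the adjusted threshold or an unadjusted p of 0.05. This split moved with the scaling: after centring, 43 of the 87 were lower (49.4%, against 42.7% of all genes), and as deposited 77.0%, against 62.6% of all genes. They moved across the arrays as the main list did, with a median deviation of -0.11 on treated array 1, 0.10 on treated array 3 and 0.12 on control array 1. Cohesin and condensin, the rings that hold and compact chromosomes, had 14 of 16 genes lower (10 of 16 with centred arrays), with the cohesin subunit genes SMC1A (-0.17) and SMC3 (-0.18) and the cohesin release factor WAPL (-0.19) nearest to the threshold. Subunits and partners of the anaphase-promoting complex had 11 of 12 lower (7 of 12 with centred arrays), with ANAPC11 at -0.36 (95% interval -0.77 to 0.05), ANAPC5 at -0.15 and ANAPC16 at -0.14.

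Further kinetochore and checkpoint genes were 15 lower and 10 higher, and 8 lower and 17 higher with centred arrays. INCENP, the scaffold of the passenger complex, differed by -0.11 (95% interval -0.28 to 0.06), with CDCA8, which encodes another passenger subunit, at -0.19 and CENPT at -0.11. Further spindle and cytokinesis genes were 15 lower and 4 higher, and 12 lower and 7 higher with centred arrays. There TACC3, which stabilizes kinetochore fibres, differed by -0.15, the kinesin KIF22 by -0.13 and the centrosome protein CDK5RAP2 by -0.20. Regulators of entry into mitosis were 12 lower and 3 higher (6 lower and 9 higher with centred arrays), with MYBL2, which encodes B-MYB, at -0.10, the CDK inhibitor CDKN1A at -0.12 and ENSA at -0.09. Groups did not overlap for 3 of the 87 genes, INCENP, TACC3 and KIF22, all lower in treated cells, against 5.30% of all genes.

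Genes of G1/S and DNA replication, which act earlier in the same cycle, had 34 of 40 lower (85.0%, against 62.6% of all genes), with a median of -0.06. With each array centred on its median, 24 of 40 had lower values, against 42.7% of all genes, with a median of -0.01. CHAF1A (-0.30) was the 1 of the 40 with an unadjusted p under 0.05, where 2.07% of all genes had one. Groups did not overlap for 4 of the 40, CHAF1A, MCM3, POLE and LIG1, all lower in treated cells, against 5.30% of all genes in that direction. This share was not tested. On the 6 arrays their median deviations were -0.08 on treated array 1, 0.05 on treated array 3 and 0.09 on control array 1. No difference between the replication and mitosis lists was tested.

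**Figure D5:**
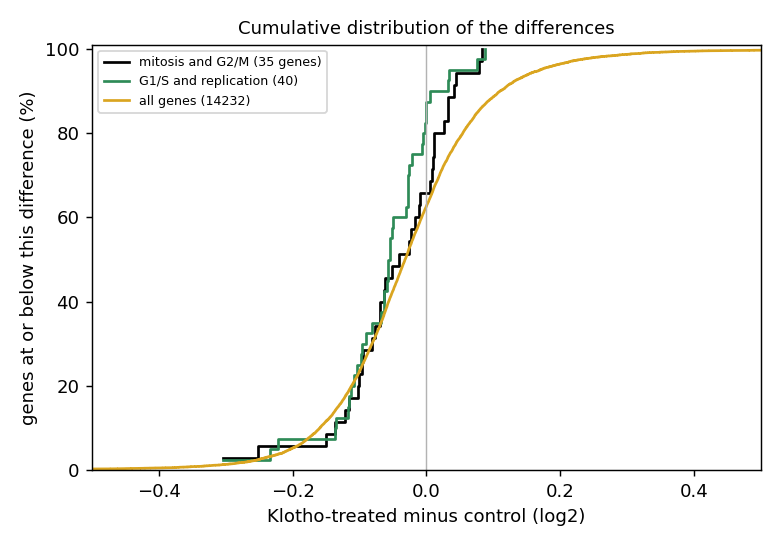
Cumulative share of genes (y axis, %) with a difference between Klotho-treated and control cells at or below a given value (x axis, log2, drawn from -0.5 to 0.5) for the 35 mitosis and G2/M genes (black), 40 G1/S and replication genes (green) and all 14232 genes (yellow). At 0 the curves stand at 65.7%, 85.0% and 62.6% for the values as deposited; with centred arrays 17 of the 35, 24 of the 40 and 42.7% of all genes lie below 0.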

How the data were processed

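The 6 arrays (3 Klotho-treated, 3 control) were grouped by their sample titles. The authors deposited 1 log2 value for each probe set on each array, made with RMA per the submitters' processing notes, with no version, software or filter stated in the sources used here. Total RNA (100 ng) was amplified and labelled with biotin by the NuGEN protocol, per the labels. Of 22011 probe sets, 14432 carried 1 gene symbol in GEO's platform annotation, 2408 several and 5171 none.

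The test was limma's (version 3.58.1, R 4.3.3; lmFit with eBayes, 2-sided) over all 22011 probe sets, with Benjamini-Hochberg adjustment over all of them and a threshold of 0.05. The fit was tested on simulated data with independent noise for each probe set, which held no shift shared between genes on an array. The genes, lists and alternatives were chosen with earlier results of these data known. Every measured gene is named, and values of each array are given for 6 fixed genes, the 2 of each role group with the smallest p and any with an unadjusted p under 0.05. The array values of CENPE, of the second BIRC5 probe set and of DES, and the levels of the other marker genes, are given beyond that rule, after they were seen. The number of arrays limits the precision, and the p-values reflect only how these samples spread, possibly for technical reasons. Promoter sequences are RefSeq's (GRCh38.p14), found for 32 of 39 genes by symbol. Alternatives were other scalings, filters, variance models, array weights, a replicate block and left-out arrays. Figures were drawn with matplotlib 3.10.9.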

Additional observations from a re-analysis of the deposited data

How the results depend on the processing

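No gene of the list and no probe set of the array passed the adjusted threshold under any of the 17 alternatives (3 scalings, a signal filter, 3 variance models, array weights, the replicate block, gene means, and arrays left out). At an unadjusted p under 0.05 the list held 1 gene, PTTG1, in the main fit and under each scaling, filter, variance model and weighting tried, 0 with the replicate block (PTTG1 unadjusted p = 0.0841), 0 to 2 when 1 array was left out and 3 (PTTG1, CENPE and NUF2) without control array 1 and treated array 3 together. The number of the 35 genes lower in treated cells was 20 with quantile normalization or cyclic loess (against 46.8% and 50.3% of all genes). It ran from 14 to 31 when 1 array was left out, while the share of all genes ran from 53.0% to 68.4%. For the role groups and other gene lists the 3 scalings were added after the data were seen; the 87 other mitosis genes had 67 lower as deposited and 43 to 44 under these scalings, and the 40 G1/S genes 34 as deposited and 24 to 27. Over the array, 703 probe sets had an unadjusted p under 0.05, 436 without dim probe sets, 438 in a fit of singly annotated genes alone, 442 when a gene's probe sets were averaged, 1644 with array quality weights, 1127 without the same 2 arrays and 577 to 1200 when 1 array was left out, the highest without treated array 3. The labels state no pairing, so the replicate numbers were not taken to pair the arrays. Deviations of same-numbered arrays from their group means correlated at -0.18, 0.06 and -0.14. With 3 arrays in each group these values cannot show that pairing was absent. Without detection calls, signal over background is unknown, and the cause of these shifts was not tested.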

Other observations

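The spacing of the CCAAT boxes was looked at after the sequences had been seen. Pairs whose starts lay 31 to 35 bases apart stood in 5 of the 42 promoter windows of the mitosis and G2/M genes (11.9%), against 1.53% of all 35116 windows, and the genes were NEK2, CCNB1, HMMR, CDK1 and CCNB2. At least 2 CCAAT boxes at any distance stood in 18 of the 42 (42.9%), against 10.8% of all windows.

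Measured genes with both a CCAAT box and a CHR core in 1 window numbered 18, of which 13 were lower in treated cells, with a median difference of -0.05. The 10 other measured genes with a promoter window had 5 lower and a median of -0.03. As deposited, 62.6% of all genes were lower, with a median of -0.03. With centred arrays 42.7% of all genes were lower, and there the 18 and the 10 genes were not counted. No test was made between the 18 and the 10 genes.

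BIRC5 had a second probe set of its own, dimmer than the one used above. It read 5.45, 5.69 and 6.01 in treated cells, against 5.95, 6.06 and 5.79 in control cells, a difference of -0.22 (95% interval -0.60 to 0.17; limma, adjusted p = 0.998), where the brighter probe set gave 0.01. Its treated SD was 0.28.

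Outside the cell cycle, 4 of the 6 measured muscle markers were lower and 2 higher in treated cells as deposited, and 3 lower and 3 higher with centred arrays. DES, the muscle intermediate filament gene, read 8.33, 8.38 and 8.25 in treated cells, against 8.48, 8.65 and 8.62 in control cells, with groups that did not overlap, as for 5.30% of all genes in that direction (difference -0.27, 95% interval -0.47 to -0.06; limma, unadjusted p = 0.0190, adjusted p = 0.998). The other 5 overlapped, at -0.09 for MYOD1, -0.08 for CHRNG, -0.04 for MYOG, 0.01 for CHRNA1 and 0.07 for MYF5.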
